A study of Mus musculus with 7 samples.

Results

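The β-cell stores insulin in dense-core granules and releases it by regulated exocytosis. The members described here are 37 genes of that machinery, listed by name for their function. No measured value set the list, but it was chosen with earlier results of these data known. It holds granins, prohormone-processing enzymes and their inhibitors, granule membrane proteins, SNAREs, calcium sensors, Rab proteins with their effectors, and priming and clamping factors. A probe whose accession matched the gene was found for 36 of the 37, and these 36 were tested among 13650 genes in all. Syt5, a granule synaptotagmin, had no matched probe and has no value here. Where a gene had several probes, the brightest over all arrays stands for it.

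RNA of isolated pancreatic islets was hybridised to 7 expression arrays, each read in 1 dye and each from 1 mouse. The 3 control mice (replicates 2, 3 and 4) were Wnt4 fl/fl without Cre, and the 4 Wnt4βKO mice (replicates 1, 2, 3 and 4) were Pdx1CreER;Wnt4 fl/fl. The paper states that each group began with 4 samples and that 1 control was left out after failing quality tests. Both groups carried floxed Wnt4 alleles, were crossed to C57BL/6J, received tamoxifen by gavage from 4 to 5 weeks of age and were killed at 7 weeks, and the methods of the study give male mice. The Cre is a tamoxifen-inducible form under the Pdx1 promoter, which is active in β-cells and also in other islet cells such as δ-cells. The controls had no Cre, so an effect of the Cre transgene and loss of Wnt4 cannot be told apart in these arrays. The comparison asks how the transcripts of the secretory machinery stood in islets after Wnt4 was removed from β-cells.

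In a granule, convertases and carboxypeptidases cut prohormones while granins pack them, and the proton pump keeps the lumen acid. At the plasma membrane the granule SNARE (a VAMP) zips with syntaxin and SNAP-25 under the control of Sec1/Munc18 proteins, and synaptotagmins or Doc2 proteins sense the calcium that triggers fusion. Rab3 and Rab27 with their effectors bring granules to the membrane, Munc13 and CAPS proteins prime them, and complexins clamp and promote the final step. Acinar cells of the exocrine pancreas release zymogen granules with a related set that uses Vamp8, Stx3, Stxbp2 and Rab3d, all of which are members.

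Values are log2 signals after background correction and quantile normalization, given for control mice 2, 3 and 4 and then for Wnt4βKO mice 1, 2, 3 and 4. Differences are Wnt4βKO minus control, with the standard error (SE), and each p was computed with limma, two-sided, and adjusted by the Benjamini-Hochberg method over 26153 tested probes. The p-values measure the spread between these mice, and the number of arrays limits the precision. Levels of different probes are not compared. In RNA of whole islets, fewer cells of a type and less RNA per cell cannot be told apart.

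All 7 arrays shared 1 slide and 1 scan, had no saturated spots, and had 45.5% to 49.0% of spots well above background. Wnt4, the targeted gene, read 11.51, 11.18 and 11.81 in controls and 11.28, 10.88, 10.99 and 10.85 in Wnt4βKO islets, a difference of -0.50 (SE 0.17, limma adjusted p = 0.623). Wnt4βKO mouse 1 overlapped the controls. Whether this probe covers the floxed exons is not given in the sources used here. All 7 arrays measured each of the 12 β-cell markers well above background. The acinar signal stood lower in all 4 Wnt4βKO preparations: the mean over 29 acinar genes was 13.38, 13.26 and 13.31 in controls and 12.10, 13.14, 12.99 and 12.43 in Wnt4βKO islets. Of those 29 genes, 10 were lower at an unadjusted p under 0.05 and none higher, with a median difference of -0.62, and no array had any of the 29 near background.

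The granule and exocytosis genes showed no difference that passed adjustment. With limma, 0 of 36 members had an adjusted p under 0.05, where 0.0220% of all tested genes did (3 of 13650). At an unadjusted p under 0.05, 3 members were higher in Wnt4βKO islets and 0 were lower. They were Cplx2, a complexin that binds the assembled SNARE complex, Pam, which amidates peptide hormones, and Pcsk1n, which encodes proSAAS, an inhibitor of the convertase PC1/3. That is 8.33% of the members, and 9.00% of all tested genes passed the same threshold, 4.59% higher and 4.42% lower. The groups did not overlap for 2 members, Pam and Pcsk2, both higher, beside 8.34% of all tested genes, 4.24% of them higher and 4.10% lower. The median difference over the members was 0.03 and over all tested genes 0.01, with 21 members above 0 and 15 below, and 52.2% of all tested genes above 0.

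**Figure D1:**
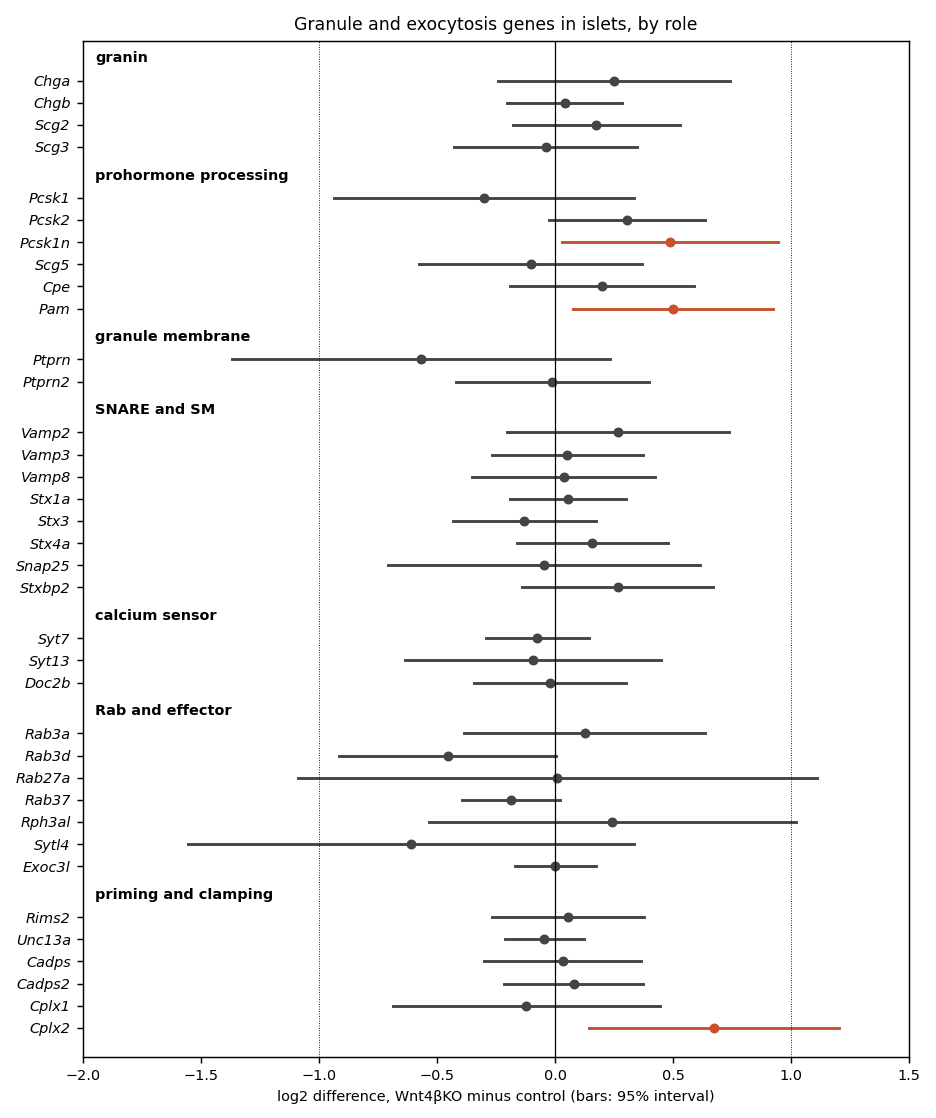
Each point is the log2 difference (Wnt4βKO minus control, 4 against 3 mice) of 1 member and each bar its 95% interval from limma, grouped by role; dotted lines mark a 2-fold difference either way and red marks an unadjusted p under 0.05. Pcsk1n, Pam and Cplx2 are the 3 members whose intervals lie above 0, and the intervals of 31 of the 36 stay inside the dotted lines.

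The intervals bound what these arrays could have missed. For 31 of the 36 members the 95% interval lay within a 2-fold difference either way, and for 16 it lay within 0.5 on the log2 scale. The exceptions to the first count were Ptprn, Rab27a, Rph3al, Sytl4 and Cplx2. For dim probes the width depends on the offset. For the dim probes of Stx1a, Syt7 and Doc2b it was 0.29, 0.31 and 0.33, in place of 0.10, 0.09 and 0.14. The Syt7 difference was then -0.32. For such dim genes these counts do not bound the fold difference. The median absolute difference was 0.12 over members and 0.11 over all genes.

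**Figure D2:**
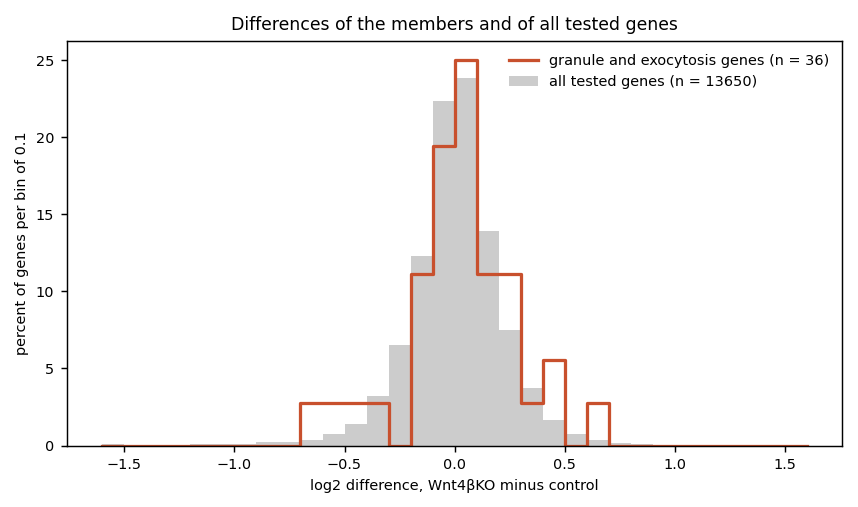
The x axis is the log2 difference (Wnt4βKO minus control) in bins of 0.1 and the y axis the percent of genes in each bin, for all 13650 tested genes (grey bars) and the 36 tested members (red line); genes beyond the axis are counted in its outermost bins. Both centre near 0, with medians of 0.03 for members and 0.01 for all genes, and the member at the far right is Cplx2 at 0.67.

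Promoter windows of the members were searched for the full palindromic cAMP response element, TGACGTCA. This element is bound by CREB proteins, which act downstream of glucose and incretin signals in β-cells. In RefSeq windows of 300 bases on GRCm38.p6 (250 before the start site and 50 from it), exact letters on either strand were found for Chgb, Scg2 and Pcsk1, which is 3 of the 26 members with a window (11.5%), beside 549 of 27025 genes (2.03%). The 150 bases before the start site are shown 5′ to 3′ on the gene's strand with the element in capitals.
Chgb, chr2:132781492-132781641, plus strand: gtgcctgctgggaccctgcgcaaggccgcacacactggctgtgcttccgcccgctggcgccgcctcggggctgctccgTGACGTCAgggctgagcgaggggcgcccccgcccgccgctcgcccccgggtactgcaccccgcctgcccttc
Scg2, chr1:79440027-79440176, minus strand: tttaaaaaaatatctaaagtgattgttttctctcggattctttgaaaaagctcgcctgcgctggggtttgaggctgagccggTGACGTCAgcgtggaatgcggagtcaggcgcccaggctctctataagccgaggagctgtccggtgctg
Pcsk1, chr13:75089707-75089856, plus strand: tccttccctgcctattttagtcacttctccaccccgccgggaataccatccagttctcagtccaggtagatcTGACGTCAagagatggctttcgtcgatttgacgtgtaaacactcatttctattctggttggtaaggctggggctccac
The element begins 72, 68 and 78 bases before the start site in the order shown. The promoters of the 3 members at an unadjusted p under 0.05 hold no such match in the window. They are shown because these genes had the lowest p-values, with 1 of the 2 windows of Pam.
Cplx2, chr13:54302406-54302555, plus strand: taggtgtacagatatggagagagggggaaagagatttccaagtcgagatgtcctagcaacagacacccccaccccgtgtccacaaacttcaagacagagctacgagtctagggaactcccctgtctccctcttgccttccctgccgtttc
Pam, chr1:98095647-98095796, minus strand: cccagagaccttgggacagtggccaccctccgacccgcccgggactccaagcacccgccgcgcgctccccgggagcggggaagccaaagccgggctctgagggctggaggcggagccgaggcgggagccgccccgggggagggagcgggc
Pcsk1n, chrX:7919672-7919821, plus strand: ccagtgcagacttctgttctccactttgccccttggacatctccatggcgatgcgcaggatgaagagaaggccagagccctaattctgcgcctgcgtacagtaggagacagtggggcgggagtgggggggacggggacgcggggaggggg
A match is a description of letters and not of binding. The median difference was 0.04 over the 3 members with the element and 0.04 over the 23 without it. Median GC content of the windows was 60.8% for members and 52.7% for all genes. No window was given for Cpe, Vamp2, Vamp3, Snap25, Syt5, Syt7, Syt13, Doc2b, Rab37, Exoc3l and Rims2.

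The granins, acidic proteins that aggregate in the granule core, gave differences from -0.04 to 0.25, with 0 of 4 at an unadjusted p under 0.05. Chga, chromogranin A, read 14.39, 14.00 and 14.24 in controls and 15.01, 14.43, 14.21 and 14.19 in Wnt4βKO islets. Wnt4βKO mice 1 and 2 lay above every control and mice 3 and 4 lay within the control range. Its difference was 0.25 (SE 0.21, limma adjusted p = 0.869), and it was 0.07 without Wnt4βKO mouse 1, 0.09 with cyclic loess and -0.04 with the mean of acinar genes as a covariate. Chgb, chromogranin B, which has the element in its promoter, ranged from 13.01 to 13.34 over all 7 arrays, and its difference was 0.04 with an interval of -0.20 to 0.28. Scg2, secretogranin II, which has it too, differed by 0.17 (interval -0.18 to 0.53). Scg3, which binds chromogranin A to granule membranes, differed by -0.04 (interval -0.43 to 0.35).

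The prohormone-processing genes had the highest role median, 0.25, with 4 of 6 above 0, and include 2 of the 3 members at an unadjusted p under 0.05. Pcsk1, whose promoter holds the cAMP response element, encodes PC1/3, a convertase that cuts proinsulin. It read 11.05, 10.29 and 10.81 in controls and 10.76, 10.81, 10.18 and 9.91 in Wnt4βKO islets. The groups overlapped, with Wnt4βKO mice 3 and 4 below every control, and the difference was -0.30 (SE 0.27, limma adjusted p = 0.879). Pcsk1n read 13.66, 13.72 and 14.05 in controls and 14.67, 13.97, 14.05 and 14.50 in Wnt4βKO islets. Mice 1 and 4 stood above every control, mice 2 and 3 did not, and the difference was 0.49, or 1.40-fold (SE 0.20, limma adjusted p = 0.682). It was 0.41 without control mouse 2, 0.44 without control mouse 3, 0.36 without Wnt4βKO mouse 1 and 0.42 without Wnt4βKO mouse 4, none of them at an unadjusted p under 0.05.

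Pcsk2 encodes PC2, the convertase that acts on proinsulin and proglucagon. It read 14.35, 14.70 and 14.75 in controls and 15.19, 14.75, 14.84 and 14.83 in Wnt4βKO islets. The groups did not overlap, but the lowest Wnt4βKO array and the highest control array were the same to the decimals given. The difference was 0.30 (SE 0.14, limma adjusted p = 0.738), and with cyclic loess normalization it was 0.07 and the groups overlapped. Without control mouse 2 it was 0.18. Scg5 encodes 7B2, the chaperone of PC2, and its difference was -0.10 (interval -0.58 to 0.37).

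Cpe encodes carboxypeptidase E, which trims basic residues after the convertases have cut. It read 14.07, 13.56 and 13.36 in controls and 13.84, 13.96, 13.71 and 13.95 in Wnt4βKO islets. Control mouse 2 was the highest array of all, and the difference was 0.20 (SE 0.17, limma adjusted p = 0.866). Without control mouse 2 it was 0.40 with no overlap, and without control mouse 4 it was 0.05. Pam read 8.02, 8.23 and 8.36 in controls and 9.11, 8.52, 8.39 and 8.79 in Wnt4βKO islets. Every Wnt4βKO array was above every control, mouse 3 by the least, and the difference was 0.50, or 1.41-fold (SE 0.18, limma adjusted p = 0.658). Its other probe gave 0.56 (SE 0.19, limma adjusted p = 0.631), with 1 overlapping array. The difference of the brightest probe was 0.41 without control mouse 2, 0.51 without control mouse 3 and 0.47 without Wnt4βKO mouse 4, none at an unadjusted p under 0.05.

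**Figure D3:**
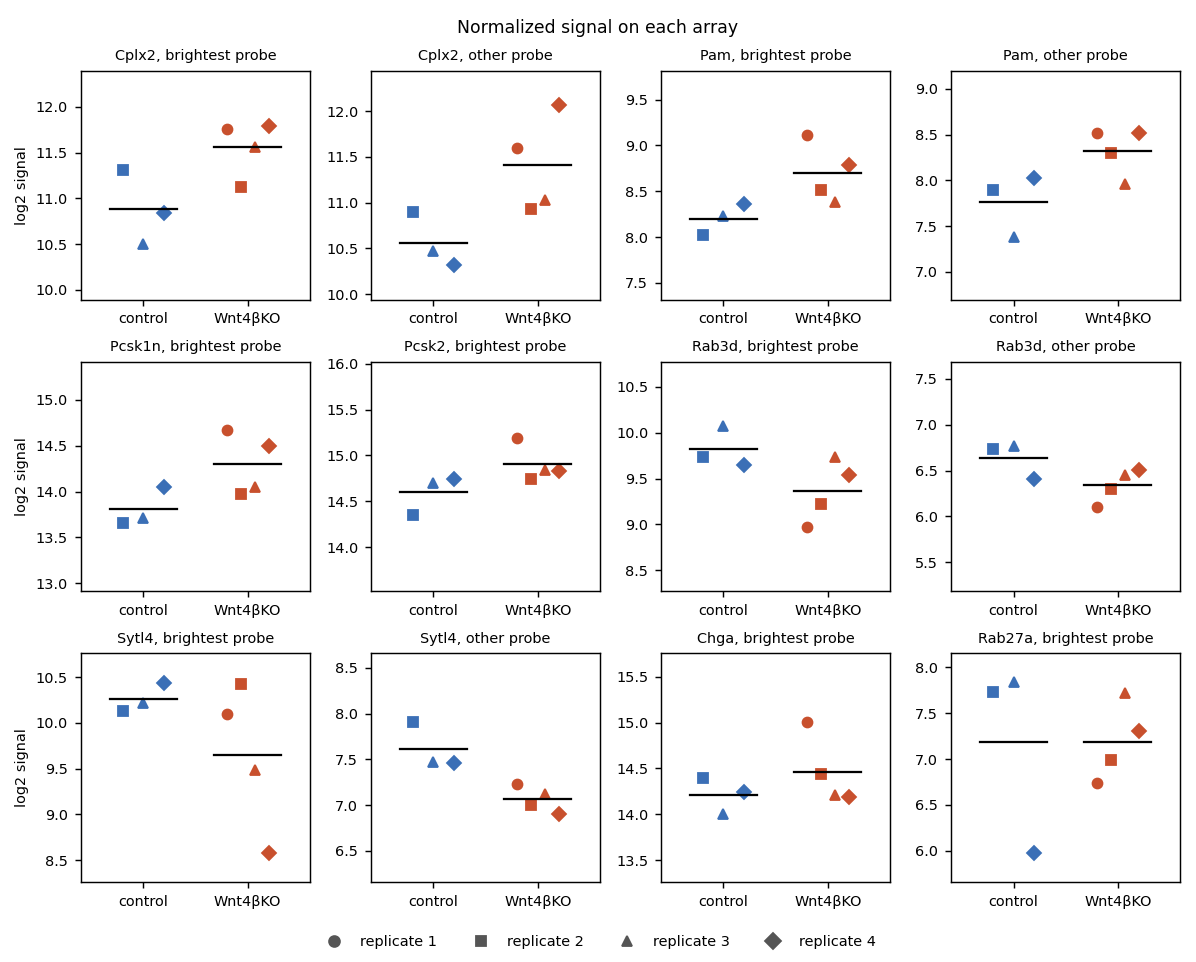
Each panel plots the log2 signal of 1 probe in 3 control (blue) and 4 Wnt4βKO (red) islet samples, with black lines at group means, marker shape for the replicate number and every y axis spanning the same range; for genes with several tested probes the brightest and another are shown. Pam (brightest probe), Pcsk2 and Cplx2 (other probe) do not overlap between groups and are higher in Wnt4βKO islets, the other probe of Sytl4 does not overlap and is lower, and the control array of mouse 4 sets the spread of Rab27a.

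Ptprn and Ptprn2 encode IA-2 and phogrin, transmembrane proteins of the granule that are also autoantigens in type 1 diabetes. Ptprn read 8.57, 9.04 and 8.01 in controls and 7.24, 7.88, 8.48 and 8.29 in Wnt4βKO islets. Mice 1 and 2 were below every control and mice 3 and 4 were not, so the difference of -0.57 had a wide interval, -1.37 to 0.23 (SE 0.34, limma adjusted p = 0.797). It was -0.32 without Wnt4βKO mouse 1, -0.32 without control mouse 3 and -0.83 without control mouse 4, where the groups did not overlap. Its other probe gave -0.12 (limma adjusted p = 0.895). Ptprn2 differed by -0.01 (interval -0.42 to 0.40), and its other 2 tested probes gave -0.08 and 0.16.

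Among the SNAREs and the Munc18 family member Stxbp2, 0 of 8 were at an unadjusted p under 0.05, and the differences ran from -0.13 to 0.27. Vamp2 encodes the granule SNARE of insulin release. It read 8.12, 8.32 and 8.45 in controls and 8.93, 8.25, 8.83 and 8.24 in Wnt4βKO islets, so that mice 1 and 3 exceeded the controls and mice 2 and 4 lay among them. The difference was 0.27 (SE 0.20, limma adjusted p = 0.854). Vamp3, a closely related VAMP, differed by 0.05 (interval -0.27 to 0.37).

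Vamp8 encodes the VAMP of zymogen granules, which β-cells also use. It read 9.69, 10.04 and 9.99 in controls and 9.72, 10.16, 10.20 and 9.69 in Wnt4βKO islets, with the groups fully interleaved and a difference of 0.04 (SE 0.17, limma adjusted p = 0.981). Stx1a, the syntaxin of the calcium-triggered fusion step, read 6.06, 6.34 and 6.13 in controls and 6.24, 6.40, 6.19 and 6.08 in Wnt4βKO islets. Its difference was 0.05 (SE 0.10, limma adjusted p = 0.946), with an interval of -0.19 to 0.30. The syntaxins Stx3 and Stx4a differed by -0.13 and 0.16, and another tested probe of each gave the opposite sign, 0.02 and -0.10. That other Stx3 probe was well above background on 3 of 7 arrays.

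Snap25 encodes the SNAP protein that pairs with Stx1a. It read 10.19, 9.44 and 9.35 in controls and 9.81, 10.09, 9.45 and 9.11 in Wnt4βKO islets, which overlap over nearly their whole range (difference -0.05, SE 0.28, limma adjusted p = 0.985). Its dimmer probe, well above background on 5 of 7 arrays, gave -0.13 with groups that did not overlap (limma adjusted p = 0.740). Stxbp2, a Munc18 protein, differed by 0.27 (interval -0.14 to 0.67). Its other probe, well above background on 4 of 7 arrays, gave -0.15.

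The differences of the 3 measured genes listed under calcium sensors lay within 0.10 of 0. Syt7, a synaptotagmin of insulin and glucagon granules, read 6.04, 6.23 and 5.97 in controls and 6.00, 6.14, 5.99 and 5.89 in Wnt4βKO islets, and the groups overlapped. The difference was -0.08 (SE 0.09, limma adjusted p = 0.912). Syt13, an atypical synaptotagmin, differed by -0.09 (interval -0.64 to 0.45), and Doc2b, a high-affinity calcium sensor, by -0.02 (interval -0.34 to 0.30).

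The Rab proteins and effectors held the members with the widest spread between mice. Rab3a, the Rab of secretory granules, read 10.006, 10.477 and 10.997 in controls and 10.52, 10.63, 10.49 and 10.83 in Wnt4βKO islets. All 4 Wnt4βKO arrays fell inside the control range, with a difference of 0.12 (SE 0.22, limma adjusted p = 0.939), and its other probe gave -0.35 (limma adjusted p = 0.836). Rab27a, which recruits granules to the membrane, read 7.74, 7.84 and 5.97 in controls and 6.74, 6.99, 7.72 and 7.31 in Wnt4βKO islets. It was well above background on 6 of 7 arrays, control mouse 4 was far below the others, and the difference of 0.01 (SE 0.47, limma adjusted p = 0.999) leaves an interval from -1.09 to 1.11. Without control mouse 4 the difference was -0.60.

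Rab3d, which coats zymogen granules in acinar cells as well as granules of endocrine cells, read 9.74, 10.08 and 9.65 in controls and 8.97, 9.22, 9.73 and 9.54 in Wnt4βKO islets. Mouse 3 alone of the Wnt4βKO group reached the control range, and the difference was -0.46 (SE 0.20, limma adjusted p = 0.717). Its other probe gave -0.30 (limma adjusted p = 0.729). Sytl4 encodes granuphilin, the Rab27 effector that docks granules while holding back their fusion. It read 10.13, 10.21 and 10.43 in controls and 10.10, 10.43, 9.48 and 8.58 in Wnt4βKO islets. Mice 1, 3 and 4 were below every control, mouse 1 only just, and the difference was -0.61 (SE 0.40, limma adjusted p = 0.826). Without mouse 4 it was -0.26.

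The other Sytl4 probe read 7.91, 7.47 and 7.46 in controls and 7.23, 7.00, 7.12 and 6.90 in Wnt4βKO islets, with every Wnt4βKO array below every control. That probe differed by -0.55 (SE 0.14, limma adjusted p = 0.492), the lowest adjusted p of any member probe. Rab37, a Rab of secretory granules, differed by -0.19 (interval -0.39 to 0.02). Rph3al, or Noc2, a Rab3 and Rab27 effector, differed by 0.24 with an interval of -0.54 to 1.02. Without control mouse 4 that difference was 0.67 with every Wnt4βKO array higher, and without control mouse 2 it was -0.06. Exoc3l, an exocyst-like protein, was well above background on 3 arrays and differed by 0.00 (interval -0.17 to 0.17).

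Among the priming and clamping factors Cplx2 stood apart in size, and the other 5 differed by -0.12 to 0.08. Cplx2 read 11.31, 10.50 and 10.84 in controls and 11.76, 11.12, 11.56 and 11.79 in Wnt4βKO islets. Mice 1, 3 and 4 were above every control and mouse 2 was below control mouse 2. The difference was 0.67 (interval 0.14 to 1.20, SE 0.23, limma adjusted p = 0.623). Its other probe read 10.90, 10.47 and 10.32 in controls and 11.60, 10.93, 11.03 and 12.07 in Wnt4βKO islets, with no overlap and a difference of 0.84 (SE 0.29, limma adjusted p = 0.624). Without control mouse 3 the difference of the brightest probe was 0.48 and without control mouse 4 it was 0.65, neither at an unadjusted p under 0.05.

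Unc13a encodes Munc13-1, the main priming factor of neurons and β-cells. It was well above background on 4 of 7 arrays and read 5.98, 6.06 and 5.87 in controls and 5.90, 5.92, 5.94 and 5.93 in Wnt4βKO islets. All Wnt4βKO arrays lay inside the control range (difference -0.05, SE 0.07, limma adjusted p = 0.928), close to the floor of the measurement. Cadps, which encodes CAPS1, read 8.74, 9.26 and 9.26 in controls and 9.23, 9.05, 9.15 and 9.04 in Wnt4βKO islets, a difference of 0.03 (SE 0.14, limma adjusted p = 0.980). A dimmer Cadps probe gave 0.32 (limma adjusted p = 0.666). Cadps2, its paralog, differed by 0.08, Cplx1 by -0.12 and Rims2, a scaffold that tethers granules to calcium channels, by 0.06.

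Of the 36 members, 16 had more than 1 tested probe. Of the 17 other probes, 12 had the sign of the brightest and 5 the opposite sign, in Ptprn2, Rab3a, Stx3, Stx4a and Stxbp2. The sign says little where the other probe is dim, as in Stx3 and Stxbp2, or where the brightest differs by -0.01, as in Ptprn2. Over all 53 tested member probes, 7 were at an unadjusted p under 0.05 (13.2%), beside 7.03% of all tested probes, and 0 had an adjusted p under 0.05, beside 0.0153% of all. Probes of 1 gene share a transcript, and 4 of the 7 belong to Cplx2 and Pam.

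Members varied more between mice of a group than the typical gene. The median pooled within-group SD was 0.25 over members and 0.18 over all tested genes, and 29 of the 36 members were above the latter. Genes of like signal were not compared, and the dim Unc13a and Exoc3l had SDs of 0.06 and 0.07. Rab27a, Sytl4, Ptprn, Rph3al and Snap25 had the largest SDs, from 0.44 to 0.74. The arrays sat in 2 rows of the slide, with 1 control and 2 Wnt4βKO mice in row 1 and 2 of each in row 2. The difference had the same sign in both rows for 16 of 36 members, 9 higher and 7 lower. Within rows 1 and 2, Cplx2 differed by 0.60 and 0.77, Pam by 0.46 and 0.46, Pcsk1n by 0.27 and 0.59, Pcsk2 by 0.22 and 0.31, and Rab3d by -0.55 and -0.27. Sytl4 differed by -0.17 and -1.14.

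The acinar signal of the preparations is given beside the members with the lowest p. Wnt4βKO mouse 1, with the lowest acinar mean (12.10), had the highest values of Pcsk1n, Pam and Pcsk2 and the lowest of Rab3d. Wnt4βKO mouse 4, with the next lowest acinar mean (12.43), had the next highest values of Pcsk1n (14.50) and Pam (8.79). Control mouse 2 had the lowest values of Pcsk1n (13.66), Pam (8.02) and Pcsk2 (14.35). None of Pcsk1n, Pam, Pcsk2, Rab3d and Cplx2 followed the order of the acinar means on every array. Pcsk2 was 14.83 in Wnt4βKO mouse 4 and 14.84 in mouse 3, and Pam was 8.39 in mouse 3 and 8.52 in mouse 2. Rab3d was second lowest in Wnt4βKO mouse 2 (9.22), which had the highest acinar mean of its group (13.14). Cplx2 was highest in Wnt4βKO mice 4 (11.79) and 1 (11.76). Its highest control value (11.31) was in control mouse 2, whose acinar mean was the highest of all (13.38). With the acinar mean as a covariate in limma, the Pcsk1n difference was 0.03 (SE 0.16), Pam 0.08 (SE 0.15), Pcsk2 0.07 (SE 0.17), Cplx2 0.38 (SE 0.31) and Rab3d -0.26 (SE 0.28). In that fit 0 of 36 members had an unadjusted p under 0.05 and 0 an adjusted p under 0.05, and 3.16% of all tested genes were at an unadjusted p under 0.05. Since every Wnt4βKO acinar mean lay below every control mean, the covariate shares part of the genotype difference. The 6 zymogen granule genes, of which 4 are members, had a mean of 8.92 to 9.06 in controls and 8.80 to 9.05 in Wnt4βKO islets, with none at an unadjusted p under 0.05.

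**Figure D4:**
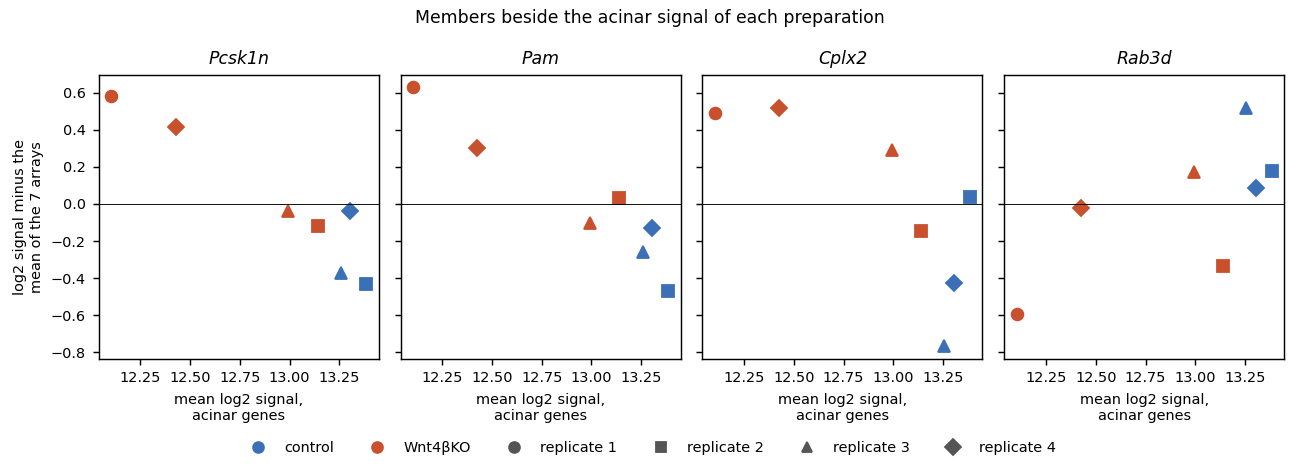
The x axis is the mean log2 signal of 29 acinar genes on an array and the y axis the log2 signal of the named member minus its mean over the 7 arrays, for control (blue) and Wnt4βKO (red) islets with marker shape for the replicate number. The Wnt4βKO arrays with the lowest acinar means (12.10 and 12.43) are high for Pcsk1n, Pam and Cplx2, and the Wnt4βKO array at 12.10 is the lowest for Rab3d, while the array at 13.14 is second lowest.

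Other genes of the secretory pathway were read from 5 further lists, and 125 of the 140 listed genes were tested. At an unadjusted p under 0.05, 2 were higher and 6 lower (6.40%, beside 9.00% of all genes), 0 had an adjusted p under 0.05 with limma, and their median difference was -0.01. Granule cargo and biogenesis genes had 23 of 35 below 0 and a median of -0.14, with 1 higher and 3 lower at that threshold. Ins1 read 15.26, 15.26 and 15.06 in controls and 15.59, 15.33, 15.59 and 15.42 in Wnt4βKO islets, all above the controls (difference 0.29, SE 0.10, limma adjusted p = 0.623). Ins2 differed by 0.01, but it sat at the top of the scale, where quantile normalization gave 5 arrays the same value of 15.82. Of the other cargo, Iapp (amylin) differed by -0.23, the granin-like Vgf by -0.62 (SE 0.33, limma adjusted p = 0.769) and the zinc transporter Slc30a8 by 0.09.

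The lowest p-values of that list belonged to enzymes of the endoplasmic reticulum and a Golgi protein. Sec11c, a catalytic subunit of signal peptidase, read 8.14, 8.68 and 8.32 in controls and 7.11, 7.63, 7.72 and 6.94 in Wnt4βKO islets. All 4 Wnt4βKO arrays were lower, with a difference of -1.03 (SE 0.22, limma adjusted p = 0.471), and with the acinar covariate it was -0.62. Ero1b, an oxidase of proinsulin folding, differed by -0.87 (SE 0.27, limma adjusted p = 0.602) and by -0.52 with the covariate. Arfip1, which acts in budding of granules at the Golgi, differed by -0.29 (SE 0.07, limma adjusted p = 0.507) and by -0.34 with the covariate. Sec11c and Ero1b also act in acinar cells.

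Further SNAREs and tethers had 0 of 32 higher and 2 lower at an unadjusted p under 0.05, with a median of 0.00. Snap47, a SNAP family protein, read 8.50, 8.90 and 8.71 in controls and 8.25, 8.25, 7.83 and 7.91 in Wnt4βKO islets. Its groups did not overlap, with a difference of -0.64 (SE 0.15, limma adjusted p = 0.471), and it was -0.71 with the acinar covariate. Stxbp6, or amisyn, a SNARE-binding inhibitor of fusion, differed by -0.31 (limma adjusted p = 0.706). Snap23, the ubiquitous SNAP, differed by 0.03.

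Of 29 tested further synaptotagmins, Rabs and priming factors, 1 was lower and 0 higher at an unadjusted p under 0.05. That was Rab26, a Rab of secretory granules in acinar cells, at -0.41 (SE 0.16, limma adjusted p = 0.666), and -0.04 with the acinar covariate. The 10 exocyst genes, which tether vesicles to the membrane, had 0 at that threshold and a median of 0.05. In the granule proton pump 1 of 19 was higher, the membrane-sector subunit Atp6v0b at 0.25 (SE 0.09, limma adjusted p = 0.624), and the median was 0.00.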

How the data were processed

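The authors deposited 1 scanner file per array with spot intensity on a linear scale, made per the file headers with Agilent Feature Extraction 12.0.1.1; labelling used 50 ng of RNA. The median spot and background intensity were used, where the planned design named the spot signal. As in the methods of the study, background was corrected with normexp (offset 50) and arrays were quantile normalized. Log2 values were computed here from the intensities the authors deposited. Outlier-flagged spots were set to missing, repeated spots averaged, and probes tested that 3 or more of the 7 arrays measured well above background (26153 of 56605). Of the probes, 32994 matched a RefSeq accession on GRCm38.p6.

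Differences were fitted with limma 3.58.1 in R 4.3.3 without covariates; other steps used Python 3.11.15. The scripts were tested on simulated data. The deposited table of processed values was not used, since deviations in its columns did not follow those of the scanner files (r -0.08 to 0.09 per array).

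The members and lists were chosen with earlier results of these data known. Per-array values are given for members with an unadjusted p under 0.05 or no overlap, for 14 members of a written list, and for Rab3d and Sytl4, which were added after their values were seen. Of the further lists, 7 genes were named from a written list and at most 3 per list by lowest p, and 2 genes that these rules name are not reported here. Alternatives were other background corrections, normalizations, filters, variance models and weights, blocks, the acinar covariate, probe averaging and each array left out.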

Additional observations from a re-analysis of the deposited data

How the results depend on the processing

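Over 20 alternatives, 0 members had an adjusted p under 0.05 in each; the lowest adjusted p was 0.419, for Cplx2 without Wnt4βKO mouse 2. The median difference of the members stayed between -0.01 and 0.10. The count of members at an unadjusted p under 0.05, which was 3, was 1 with the scanner's processed signal centred on each array's 75th percentile (6.88% of all genes), 1 with median scaling (3.66%), 0 with the acinar covariate (3.16%) and 6 with the mean over probes of a gene (8.66%). Leaving out 1 array gave 0 to 5: 0 without control mouse 3 (7.86% of all genes), 5 without Wnt4βKO mouse 2 (10.9%) and 1 without Wnt4βKO mouse 4 (7.24%). The count without overlap, which was 2, was 0 with the processed signal (8.92% of all genes), 1 with cyclic loess (8.32%) and 1 with median scaling (3.99%). Leaving out 1 array gave 2 to 12, with 12 without control mouse 4 (18.5% of all genes), 6 without control mouse 2 (17.0%), 5 without control mouse 3 (15.6%) and 6 without Wnt4βKO mouse 2 (15.6%); fewer arrays overlap less often. The 8 further secretory genes became 2 with median scaling, 5 with the acinar covariate and 13 with the mean over probes, and 7 to 13 with 1 array left out, 13 of them without Wnt4βKO mouse 2. Other than fewer arrays, the cause was not tested.

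Deviations from the group means correlated at r -0.13, 0.23 and -0.01 in same-numbered mice, and at -0.31 to 0.16 in the other pairs. With 3 such pairs this cannot tell whether the numbers pair the samples. The paper names littermate controls without saying which mice were littermates. With the replicate number as a block 0 members had an adjusted p under 0.05. In that fit 3 members and 10 further genes had an unadjusted p under 0.05, beside 8.03% of all tested genes. With that block Rab3d took the place of Cplx2. No control has the number 1, so the block leaves Wnt4βKO mouse 1 out of the differences and only the 3 same-numbered pairs count. The Pcsk1n difference was 0.36 with the block and 0.36 without that mouse.

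Of the 36 members, 15 kept their sign in all 20 alternatives and 21 changed it in some. An unadjusted p under 0.05 in at least 1 was seen for 10, a count not made for all tested genes. Unc13a, Exoc3l and Rab27a were not well above background on every array, so dim signal limits their values.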

Other observations

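Lists of markers of other islet cells are given as values. Of 8 immune genes, 8 were above 0 with a median of 0.35, and 0 had an unadjusted p under 0.05; the mean of the list was 7.84 to 8.06 in controls and 7.85 to 8.96 in Wnt4βKO islets, highest in mouse 4. Of 7 neural and Schwann cell genes, 2 were lower and 0 higher at an unadjusted p under 0.05, 3 were above 0 and the median was -0.16. Elavl4, a neuronal RNA-binding protein among them, differed by -0.44 (SE 0.15, limma adjusted p = 0.624). Median differences of the other lists were 0.06 for 8 α-cell genes, 0.07 for 6 δ- and PP-cell genes, -0.03 for 7 duct genes, 0.01 for 8 endothelial genes and -0.10 for 8 mesenchymal genes, with 0 at an unadjusted p under 0.05 in each by limma. Of 12 β-cell genes, 1 was higher (Ins1) and 2 lower at that threshold, and the median was 0.00. The mean of those 12 genes was 11.10, 11.12 and 11.12 in controls and 11.05, 10.98, 10.92 and 10.85 in Wnt4βKO mice 1 to 4. Every Wnt4βKO array was below every control. That mean includes Slc2a2, which had the lowest difference of the list. Slc2a2 read 9.92, 9.93 and 9.87 in controls and 8.17, 8.43, 8.32 and 8.57 in Wnt4βKO islets. The mean without it was not computed, so the order of these means does not show a fall across the other β-cell genes. Of the 12 genes, 6 were above 0 and 6 below. Slc2a2, the glucose transporter of β-cells, had an adjusted p of 0.00765 with limma and a difference of -1.53 (SE 0.10).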
